A study of Saccharomyces cerevisiae W303 with 30 samples.

Results

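The change of each gene in newly synthesized RNA was compared between lasting and acute loss of Med16 in budding yeast. For every gene, the difference between med16-deletion and wildtype cells (the lasting change) was set against the difference between Med16-AID +IAA and Med16-AID +DMSO cells (the acute change), and the first minus the second is called the interaction. The comparison used 12 of the 30 libraries of the series, in 4 groups of 3. YNL236W (MED16 itself) and the marker genes YCL018W (LEU2) and YBR115C (LYS2), which the strain construction altered, were left out, and 5696 of the 6692 genes in the tables had enough counts to be tested.

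The wildtype cells were strain GZY164, a MATa strain of the W303 background with auxotrophic markers in ADE2, HIS3, LEU2, TRP1 and URA3. The med16-deletion cells (GZY166) carried the same markers, a lys2 mutation and LEU2 in place of MED16. Neither strain received 3-IAA or DMSO. The Med16-AID cells (GZY233) expressed Med16 fused to a 3xV5-IAA7 degron and OsTIR1 from the constitutive GPD1 promoter, integrated with LEU2. They were treated for 30 min with 0.5 mM 3-IAA, an auxin that makes OsTIR1 direct the degron-tagged protein to the proteasome, or with the vehicle DMSO alone. All cells grew in rich glucose medium and were labeled for 6 min with 4-thiouracil (4tU), a uracil analog that marks RNA synthesized in that window for pulldown and sequencing (nsRNA-seq). The 2 comparisons share no library. They differ in strain, marker genes, tag, vehicle and exposure to 3-IAA as well as in the duration of the loss, and these cannot be told apart. No cells without the degron received 3-IAA here, so a response to 3-IAA itself cannot be told apart from acute loss of Med16.

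Mediator is a large coactivator that links transcription factors bound upstream of a gene to RNA polymerase II at its promoter. Its tail module is the main contact for activators, and Med16 (also known as Sin4) joins the Med2-Med3-Med15 part of the tail to the rest of the complex, so that this part is released when Med16 is lost. Cells without Med16 have long been known for weaker induction of many genes. The study cites earlier reports of raised expression of PHO5, maltose genes, ARG1 and FLR1, and of HO in certain mutants. Those reports measured steady-state RNA. In the values below PHO5 and FLR1 instead fell with lasting loss, HO rose, and 1 of 10 maltose genes tested rose.

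Each library held 3838508 to 5893369 sense counts on genes. The MED16 gene had 783 to 967 counts in wildtype, 9 to 22 in med16-deletion, 681 to 821 in Med16-AID +DMSO and 946 to 1127 in Med16-AID +IAA, where only the protein is removed. Among the libraries, Med16-AID +IAA replicate 1 stood apart in its mapping, with 35.5% of reads mapping to many places against 40.8 to 52.3% in the other 11. Of 7 genes specific to MATa cells, BAR1, which encodes the protease that degrades alpha-factor, was at 0 in all 6 Med16-AID libraries, a difference that is not in the strain's listed genotype. The summed normalized counts of these 7 genes were 9617 to 10225 in wildtype, 8336 to 10019 in med16-deletion, 7136 to 7654 in Med16-AID +DMSO and 5929 to 6547 in Med16-AID +IAA, while 4 MATalpha genes summed to 106 to 185 in any library. The starting points of the 2 comparisons also differed. Med16-AID +DMSO and wildtype, the 2 controls, differed in 2803 of 5696 genes (49.2%; 1473 higher and 1330 lower in Med16-AID +DMSO), with a median absolute log2 difference of 0.28. This contrast was added after the values had been seen, and its part in the results below was not tested.

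A gene was called where its adjusted p (edgeR quasi-likelihood F-test, Benjamini-Hochberg over the 5696 genes) was under 0.05. Values are given as normalized counts, scaled by the trimmed mean of M-values (TMM), and changes as log2 differences ± SE with n = 3 libraries per group. The interaction was called in 374 genes (6.57%), of which 154 were higher (2.7%) and 220 lower (3.86%) with lasting than with acute loss. The lasting change was called in 997 genes (17.5%; 448 higher, 7.87%, and 549 lower, 9.64%) and the acute change in 640 (11.2%; 233 higher, 4.09%, and 407 lower, 7.15%). The 374 genes fell into 228 with only the lasting change called (4%), 56 with only the acute change called (0.983%), 22 with both called in opposite directions (0.386%), 51 with both called in the same direction but with different size (0.895%), and 17 with the interaction alone called (0.298%). A further 214 genes had both changes called in the same direction and no called interaction. In all 51 genes with both changes and an interaction, the lasting change was the larger one. GUA1 was the last gene inside the threshold, with an interaction of 0.38 and an adjusted p of 0.04986, and BUD21 the first outside, with 0.49 and 0.05014.

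**Figure D1:**
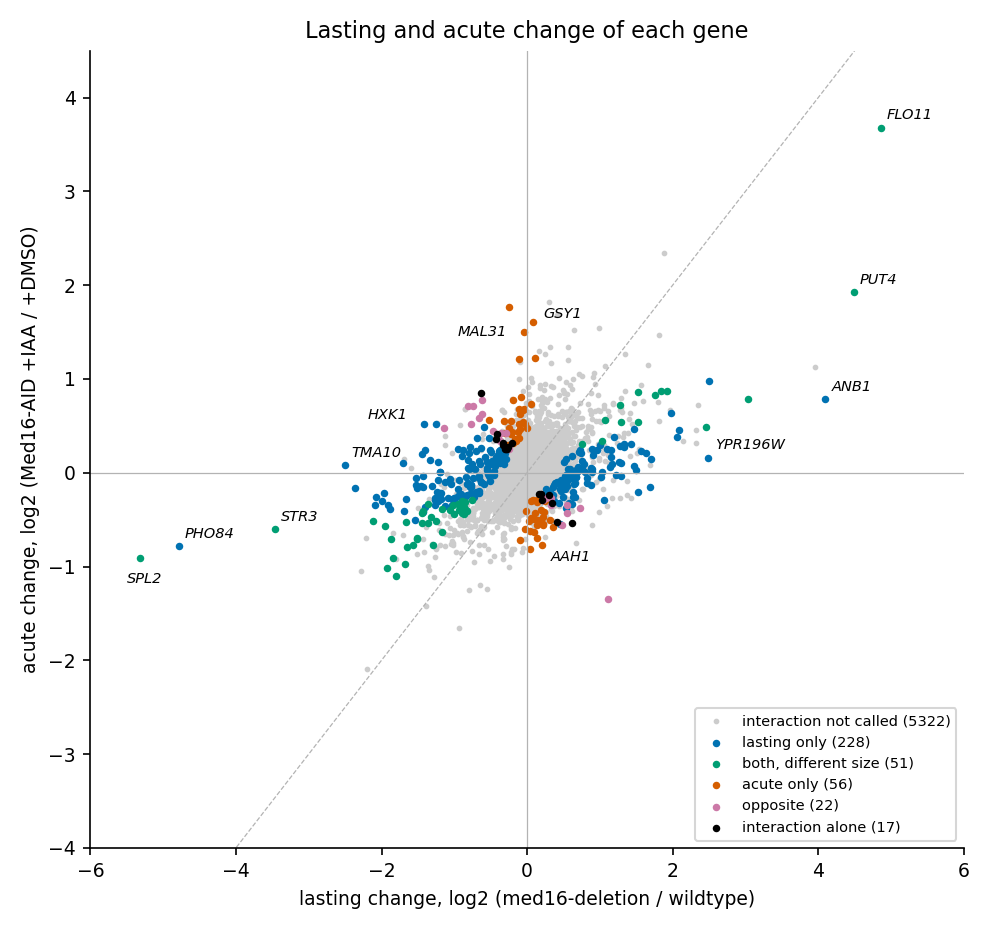
Lasting change (x axis, log2 of med16-deletion over wildtype) against acute change (y axis, log2 of Med16-AID +IAA over +DMSO) of 5696 genes, 1 point per gene, colored by class. The dashed line marks equal changes: genes with only the lasting change called (228) spread along the x axis, from PHO84 at −4.79 to ANB1 at 4.10, and genes with only the acute change called (56) along the y axis. The value of ANB1 is uncertain, since its wildtype level was at or near 0.

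The number of calls depended on the scaling. Labeled S. pombe cells were added to all cultures as a spike-in. The study scaled its counts by them and reported more rises than falls in both comparisons. TMM factors cancel a shift shared by most genes, so the directions counted above are relative to the other genes. With size factors of the spike-in, added as an alternative after the files had been seen, 111 interactions were called (30 higher and 81 lower). Of these, 106 were among the 374. All 374 kept their sign, and none moved by more than 0.10, since this scaling raised the lasting and the acute change together, to medians over all genes of 0.19 and 0.21 instead of 0.01 and 0.01. The lasting calls became 497 (309 higher and 188 lower) and the acute calls 171 (151 higher and 20 lower), so the balance of directions within each comparison depended on the scaling. Total counts as scaling gave 1675 higher and 339 lower lasting calls, 829 higher and 192 lower acute calls, and 443 interaction calls (253 higher and 190 lower). With the spike-in factors 81 genes were lasting only, 15 acute only and 2 opposite. Of these, 63, 7 and 1 were in the same class with TMM factors. Leaving out 1 library gave 247 (without wildtype replicate 1) to 540 (without Med16-AID +DMSO replicate 1) interaction calls.

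The deepest fall with lasting loss that acute loss did not match was in the phosphate genes. PHO84 (YML123C, chromosome XIII, 24037 to 25800), the high-affinity phosphate transporter, held 3266, 3553 and 3298 normalized counts in wildtype, 30.4, 56.5 and 301 in med16-deletion, 4179, 5694 and 4331 in Med16-AID +DMSO and 3103, 2559 and 2588 in Med16-AID +IAA. The med16-deletion libraries lay far below all others, and the +IAA libraries lay below +DMSO without overlap. Of all genes, 35.3% had no overlap between the groups of the lasting and 26.7% between those of the acute comparison. The lasting change of PHO84 was −4.79 ± 0.45 (adjusted p = 4.9e-07) and the acute change −0.78 ± 0.35 (95% interval −1.53 to −0.04, adjusted p = 0.17), which gave an interaction of −4.0 ± 0.56 (adjusted p = 0.00029). The third med16-deletion library was the highest of its group, and without it the interaction was −5.55. With unstranded counts its interaction was −2.10. In such bulk cultures, fewer cells that express a gene and less RNA per cell cannot be told apart.

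SPL2, an inhibitor of low-affinity phosphate uptake that phosphate starvation induces, held 50.7, 47.5 and 38.6 normalized counts in wildtype, 0.801, 1.15 and 1.19 in med16-deletion, 220, 194 and 149 in Med16-AID +DMSO and 99.2, 109 and 92.5 in Med16-AID +IAA. It was near the detection limit in med16-deletion, with 1 read per library, so no fold is given for it, and its acute change of −0.91 ± 0.15 (adjusted p = 0.00078) was also called. The secreted acid phosphatase PHO5 held 211, 231 and 222 normalized counts in wildtype, 48.1, 63.4 and 105 in med16-deletion, 471, 529 and 483 in Med16-AID +DMSO and 365, 326 and 341 in Med16-AID +IAA, and it fell in both comparisons, by 1.66 and 0.52 on the log2 scale (interaction −1.14 ± 0.23, adjusted p = 0.0052; −0.44 and no longer called with unstranded counts). With the spike-in factors the acute changes of SPL2 and PHO5 were −0.71 and −0.30 and were not called (adjusted p = 0.085 and 0.41). PHO12, a near-identical relative of PHO11 whose counts are therefore uncertain, fell with lasting loss only, from a range of 44.9 to 51.8 in wildtype to 18.4 to 20.3 in med16-deletion, against 97 to 109 in +DMSO and 95 to 134 in +IAA. The polyphosphate polymerase subunit VTC3 completed the called members (interaction −0.82). In all, 5 of the 21 phosphate starvation genes tested had a lower interaction and 0 a higher one (8 without med16-deletion replicate 1). With lasting loss 13 fell and 1 rose, and with acute loss 7 fell and 1 rose. Among all genes, 3.86% had a lower interaction, 9.64% fell with lasting loss and 7.15% fell with acute loss. The medians of the list were −0.61 (lasting) and −0.15 (acute), the second of which changed sign with the spike-in factors, to 0.06.

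Genes of methionine synthesis and sulfur uptake formed the largest group on the lower side. Of 33 tested, 21 had a called interaction, all of them lower, against 3.86% of all genes, with a median interaction of −0.78 and medians of −1.14 for the lasting and −0.22 for the acute change. With lasting loss 30 fell (9.64% of all genes) and 1 rose, and with acute loss 7 fell (7.15% of all genes). STR3 (YGL184C, chromosome VII, 154615 to 156012), a cystathionine beta-lyase that makes homocysteine, held 1432, 1223 and 1373 normalized counts in wildtype, 152, 118 and 87.1 in med16-deletion, 1256, 1143 and 1271 in Med16-AID +DMSO and 544, 861 and 1015 in Med16-AID +IAA. It fell by 3.47 with lasting and by 0.60 with acute loss on the log2 scale, without overlap between the groups in either comparison (interaction −2.86 ± 0.26, adjusted p = 1.2e-05). With the spike-in factors its acute change was −0.45 and not called (adjusted p = 0.19). The +IAA libraries of STR3 spread from 544 to 1015, and replicate 1 was the lowest.

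MET6, the enzyme that makes methionine from homocysteine, held 4825, 4707 and 4938 normalized counts in wildtype, 1400, 1323 and 991 in med16-deletion, 3106, 3408 and 3134 in Med16-AID +DMSO and 2450, 2949 and 2885 in Med16-AID +IAA. Its lasting change was −1.96 ± 0.11, a fall well beyond the spread of the libraries, and its acute change was −0.22 ± 0.11 (95% interval −0.45 to 0.01, adjusted p = 0.21). MET17, which incorporates sulfide into homocysteine, went from 9589 to 10329 in wildtype to 4052 to 4488 in med16-deletion, while the +DMSO range of 7277 to 8188 and the +IAA range of 5771 to 7383 overlapped (interaction −1.04 ± 0.14). The uptake genes MUP1 and MUP3 (methionine permeases) and MMP1 (S-methylmethionine permease) had interactions of −1.04, −1.32 and −1.61. The regulatory genes MET28 and MET32 had −0.92 and −1.16. The 21 members thus span uptake, sulfate assimilation, homocysteine synthesis and regulation. The spike-in factors left 14 of the 33 called, and leaving out 1 library gave 18 to 26.

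The E-box CACGTG, the core to which Cbf1 binds with Met4 at sulfur genes and which Pho4 binds at phosphate genes, was searched on both strands between 250 bases before and 50 after the coding start. It occurred in 8 of 33 methionine and sulfur genes (24.2%) and in 5 of 21 phosphate genes (23.8%), against 2.97% of 5558 promoters with a sequence. MET14, which encodes adenylylsulfate kinase of sulfate assimilation, is shown as a member with the motif, and was chosen after its values had been seen (interaction −0.97, lasting change −1.26, acute change −0.29). The sequence, from RefSeq (build R64), runs from 250 to 51 bases before the coding start with the motif in capitals.
MET14 (chrXI:439436-439635, minus strand): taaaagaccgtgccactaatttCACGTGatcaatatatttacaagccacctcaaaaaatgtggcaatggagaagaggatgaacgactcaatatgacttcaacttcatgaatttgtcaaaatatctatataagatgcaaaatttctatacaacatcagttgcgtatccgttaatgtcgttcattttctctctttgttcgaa

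Chaperones of the heat shock response fell with lasting loss in the same manner. Of 24 tested, 16 had a lower interaction (3.86% of all genes) and 0 a higher one. The medians were −0.65 for the interaction, −0.91 for the lasting and −0.31 for the acute change. With lasting loss 21 fell (9.64% of all genes), and with acute loss 9 fell (7.15% of all genes). SSA4 (YER103W, chromosome V, 364589 to 366517), the heat-induced Hsp70, held 3608, 2215 and 1988 normalized counts in wildtype, 738, 532 and 223 in med16-deletion, 9385, 8339 and 7880 in Med16-AID +DMSO and 6720, 8756 and 7473 in Med16-AID +IAA. The med16-deletion values lay below wildtype without overlap, whereas +IAA and +DMSO overlapped (acute change −0.16 ± 0.26, 95% interval −0.71 to 0.39; interaction −2.21 ± 0.39, adjusted p = 0.0018). Both Med16-AID groups stood above wildtype, so the 2 comparisons of SSA4 started from different levels.

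HSP82, the inducible Hsp90, started from like levels in the 2 controls. It held 19210, 17887 and 16942 normalized counts in wildtype, 5283, 4892 and 3404 in med16-deletion, 19673, 21022 and 19437 in Med16-AID +DMSO and 16384, 16822 and 15526 in Med16-AID +IAA. It fell by 1.99 on the log2 scale with lasting loss, and the acute change was −0.30 ± 0.12 (95% interval −0.56 to −0.04, adjusted p = 0.12), with an interaction of −1.69 ± 0.18 (adjusted p = 2.4e-05). The small heat shock protein HSP42 had an interaction of −1.82 ± 0.19, the disaggregase HSP104 of −1.38 and the Hsp70 SSA1 of −1.36 ± 0.17. The Hsp90 cochaperones STI1 and AHA1 were among the 6 members with a called interaction that fell in both comparisons (2 more fell in both without one). STI1 was at −1.17 (lasting) and −0.38 (acute), and AHA1 at −0.93 and −0.39. The cochaperone CPR6 was instead lasting only, at −1.03 and −0.35 (acute adjusted p = 0.096). The near-identical pairs SSA1 with SSA2 and HSP82 with HSC82 share reads, so their separate values are uncertain. With the spike-in factors 6 of 24 interactions were called, and leaving out 1 library gave 12 to 18.

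The heat shock element core GAANNTTC, to which Hsf1 binds and which reads alike on both strands, was found in 11 of 24 chaperone promoters (45.8%) against 12.1% of all, and was searched after the values had been seen. HSP42 is shown as one of the members with the deepest fall.
HSP42 (chrIV:806371-806570, plus strand): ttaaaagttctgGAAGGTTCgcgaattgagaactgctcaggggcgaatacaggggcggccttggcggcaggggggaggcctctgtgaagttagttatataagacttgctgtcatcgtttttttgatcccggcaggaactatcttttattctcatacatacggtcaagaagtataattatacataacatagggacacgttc

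TMA10, a small protein that associates with ribosomes, had one of the widest contrasts among single genes. It held 818, 460 and 429 normalized counts in wildtype, 133, 113 and 47.7 in med16-deletion, 1827, 1412 and 1801 in Med16-AID +DMSO and 1676, 1869 and 1796 in Med16-AID +IAA. The fall with lasting loss was −2.50 on the log2 scale, while the acute change was 0.08 ± 0.21 with overlapping groups (interaction −2.58 ± 0.34, adjusted p = 0.00017). HXK1, the hexokinase that glucose represses, held 809, 543 and 423 normalized counts in wildtype, 242, 251 and 169 in med16-deletion, 1750, 1308 and 1482 in Med16-AID +DMSO and 2562, 2183 and 1780 in Med16-AID +IAA. Its lasting change was −1.41 ± 0.21, and its acute change of 0.52 ± 0.18 pointed the other way but was not called (adjusted p = 0.075; 0.008 with the spike-in factors). Both belong to the list of 28 general stress genes, in which 3 interactions were lower (TMA10, HXK1 and the nicotinamidase PNC1) and 2 higher (GND2 and SPI1). Among all genes the shares were 3.86% lower and 2.7% higher.

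In the opposite direction, the genes of oxidative phosphorylation rose with lasting loss, and few of them did so with acute loss. Of 39 nuclear genes of respiratory complexes II, III and IV, cytochrome c and the ATP synthase, 22 had a higher interaction and 0 a lower one, against 2.7% of all genes. With lasting loss 35 rose (7.87% of all genes) and 0 fell, and with acute loss 3 rose (4.09% of all genes) and 0 fell. The medians were 0.66 (lasting), 0.07 (acute) and 0.55 (interaction), and 20 of the 22 were lasting only. The mitochondrial ribosomal proteins, which serve the same organelle, had no interaction call among 62 (edgeR, adjusted p, and DESeq2; 1 at an unadjusted p under 0.05), with a median of −0.05.

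COX12 (YLR038C, chromosome XII, 224921 to 225172), a subunit of cytochrome c oxidase, held 284, 262 and 297 normalized counts in wildtype, 522, 522 and 677 in med16-deletion, 338, 268 and 262 in Med16-AID +DMSO and 312, 295 and 266 in Med16-AID +IAA. All med16-deletion libraries were above all other libraries. The lasting change was 1.03 ± 0.12, the acute change 0.01 ± 0.12 (95% interval −0.25 to 0.27), and the interaction 1.02 ± 0.17 (adjusted p = 0.0015). SDH2, the iron-sulfur subunit of succinate dehydrogenase, held 739, 692 and 672 normalized counts in wildtype, 1451, 1334 and 1902 in med16-deletion, 763, 624 and 594 in Med16-AID +DMSO and 771, 807 and 759 in Med16-AID +IAA, with changes of 1.15 ± 0.12 and 0.24 ± 0.12. QCR8, a subunit of the cytochrome bc1 complex, held 495, 408 and 392 normalized counts in wildtype, 623, 621 and 772 in med16-deletion, 738, 688 and 646 in Med16-AID +DMSO and 615, 597 and 585 in Med16-AID +IAA. It rose with lasting loss, while the +IAA libraries were below +DMSO without overlap but short of the threshold (acute change −0.20 ± 0.10, adjusted p = 0.2).

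QCR10, COX6, RIP1 and COX4 had interactions of 0.98, 0.88, 0.83 and 0.72, each with an acute change between −0.06 and 0.16. The third med16-deletion library was the highest of its group in all 7 of these genes. SDH1, the flavoprotein subunit, was one of 2 members that rose in both comparisons with a called interaction (1 more rose in both without one), by 1.07 ± 0.08 and 0.56 ± 0.08 on the log2 scale (interaction 0.52 ± 0.12). Of the enzymes of the citrate cycle, which feeds this chain, 2 of 13 had a called interaction, against 6.57% of all genes. They were FUM1, fumarase (0.52 ± 0.11), and KGD2 (0.39). The call of KGD2 (adjusted p = 0.048) was lost without any of 10 single libraries, and neither gene was called with the spike-in factors. The median interaction of the 39 genes was 0.54 with the spike-in factors, close to the value above, but only 3 members were then called. Leaving out 1 library gave 16 to 28.

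The pentamer CCAAT, the core bound by the Hap2/3/4/5 activator of respiratory genes, searched in the same window on both strands, was in 33 of the 39 promoters (84.6%), against 43.8% of all promoters, 59.8% of the lasting-only genes with a higher interaction and 35.4% of those with a lower one. COX12 and QCR8 are shown with the motif in capitals (RefSeq, build R64, 250 to 51 bases before the coding start).
COX12 (chrXII:225223-225422, minus strand): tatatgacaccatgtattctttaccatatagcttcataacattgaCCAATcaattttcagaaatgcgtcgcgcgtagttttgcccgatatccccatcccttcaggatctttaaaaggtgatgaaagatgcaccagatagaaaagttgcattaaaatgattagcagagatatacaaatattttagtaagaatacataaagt
QCR8 (chrX:106184-106383, plus strand): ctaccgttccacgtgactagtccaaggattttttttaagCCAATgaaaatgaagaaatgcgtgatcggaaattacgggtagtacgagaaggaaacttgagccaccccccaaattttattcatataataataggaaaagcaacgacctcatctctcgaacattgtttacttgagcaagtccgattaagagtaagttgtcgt

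**Figure D2:**
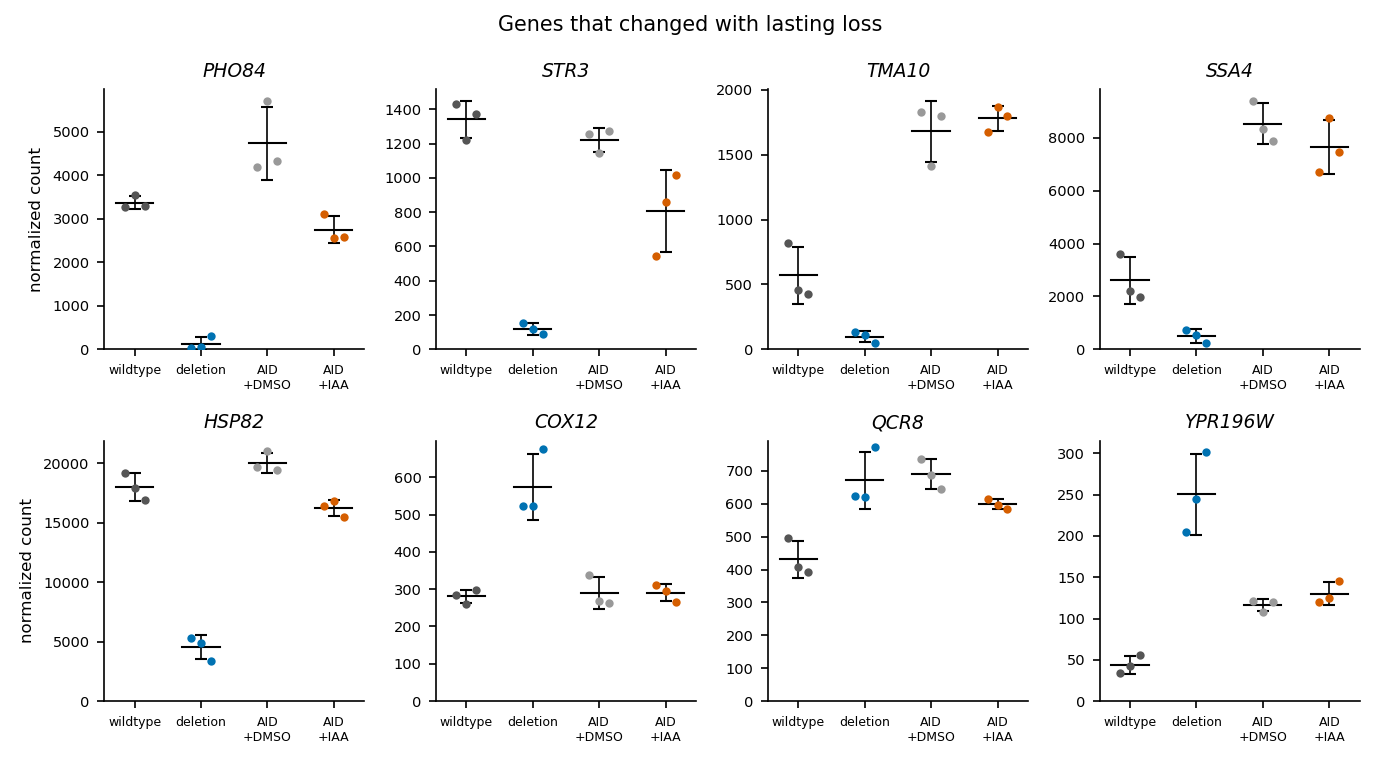
Normalized counts (y axis, linear from 0) of 8 genes in the 12 libraries, by group, with points for libraries, a bar for the mean and whiskers for the SD of 3 libraries. For PHO84, TMA10 and SSA4 the blue med16-deletion points sit near the bottom and both Med16-AID groups are high; for COX12 the med16-deletion points, 522 to 677, are above the other 9 (262 to 338).

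Among single genes that rose with lasting loss only, YPR196W, an uncharacterized relative of the maltose activators, had the largest interaction of those named by size. It held 33.8, 42.6 and 55.3 normalized counts in wildtype, 205, 244 and 302 in med16-deletion, 121, 108 and 120 in Med16-AID +DMSO and 119, 125 and 146 in Med16-AID +IAA, with a lasting change of 2.49 ± 0.18 and an acute change of 0.16 ± 0.16 (interaction 2.33 ± 0.25, adjusted p = 2.8e-05). AIM33, little characterized, YET2, a relative of an endoplasmic reticulum protein, and FMP48, a putative kinase, had interactions of 1.74 ± 0.19, 1.68 ± 0.24 and 1.64 ± 0.26. In each of them the +IAA and +DMSO libraries overlapped. FUS1, a membrane protein of mating cell fusion, rose from 107 to 123 in wildtype to 340 to 376 in med16-deletion, against 163 to 198 in +DMSO and 178 to 249 in +IAA (interaction 1.43 ± 0.18). Antisense counts on FUS1 were higher than its sense counts in wildtype, and with unstranded counts the interaction was −0.76. KAR4, a transcription factor of mating, had an interaction of 0.68 ± 0.11. ANB1, the hypoxic form of the translation factor eIF5A, held 0, 1.22 and 0 normalized counts in wildtype, 10.4, 9.22 and 4.77 in med16-deletion, 12.5, 18.5 and 10.9 in Med16-AID +DMSO and 21, 26.5 and 25.5 in Med16-AID +IAA, so that its wildtype level was at or near 0 and its interaction call was lost without any of 8 single libraries (adjusted p up to 0.14).

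Iron and nitrogen genes split between directions. Of 24 iron uptake genes, 2 had a higher (2.7% of all genes) and 6 a lower interaction (3.86% of all genes). The siderophore transporter ARN1 rose from 1750 to 1939 in wildtype to 3587 to 5224 in med16-deletion, with overlapping +DMSO (1124 to 1260) and +IAA (1088 to 1250) libraries (interaction 1.24 ± 0.16). TIS11, which destabilizes mRNAs when iron is short, went the other way, with a lasting change of −1.20 ± 0.15 and an acute change of 0.00 ± 0.13. The multicopper oxidase FET3 and the siderophore transporter SIT1 had interactions of −0.67 and −0.63.

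Of 28 genes of nitrogen use, 6 had a lower interaction (3.86% of all genes). They include the GATA activator GAT1, which held 435, 469 and 470 normalized counts in wildtype, 175, 156 and 142 in med16-deletion, 243, 233 and 257 in Med16-AID +DMSO and 222, 230 and 253 in Med16-AID +IAA (lasting change −1.53 ± 0.10, acute change −0.06 ± 0.10), and the ammonium permease MEP2, with changes of −1.53 ± 0.11 and −0.13 ± 0.11. GAP1, the general amino acid permease, and AGP1 had interactions of −1.13 and −1.02. The 1 member with a higher interaction was PUT4, the proline permease, which held 149, 119 and 133 normalized counts in wildtype, 3098, 2437 and 3474 in med16-deletion, 137, 77.9 and 53.4 in Med16-AID +DMSO and 310, 329 and 387 in Med16-AID +IAA. PUT4 rose in both comparisons, by 4.49 ± 0.20 and 1.93 ± 0.22 (interaction 2.56 ± 0.31, adjusted p = 7.4e-05).

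Lysine and leucine genes are read with the strain markers in mind, since med16-deletion differs from wildtype in LYS2 and LEU2. LYS20 and LYS9 of lysine synthesis had interactions of −1.03 ± 0.14 and −1.02 ± 0.18 and fell in both comparisons. LEU1 of leucine synthesis fell with lasting loss (−0.82 ± 0.08) and not with acute loss (0.13 ± 0.08), and LEU4 fell in both (−1.01 ± 0.09 and −0.35 ± 0.09). With the spike-in factors the acute changes of LYS20, LYS9 and LEU4 were −0.14, −0.21 and −0.14 and were not called (adjusted p = 0.69, 0.54 and 0.69). The part of the markers in these values cannot be told apart from that of Med16. The neighbors of the replaced gene, named after their values were seen, also had large interactions, with YTP1 at −1.65 ± 0.23 (1.40 with unstranded counts) and YNL234W at 1.39 ± 0.14.

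Other genes changed in the same direction in both comparisons, but more with lasting loss. The oligopeptide transporter OPT2 rose from 109 to 136 in wildtype to 907 to 1227 in med16-deletion and from 90.2 to 121 in +DMSO to 160 to 195 in +IAA (interaction 2.25 ± 0.21; 1.65 with unstranded counts). FLO11, the cell-surface flocculin, rose by 4.86 and 3.68 on the log2 scale (interaction 1.18, adjusted p = 0.035). The drug pump PDR5 fell from 7961 to 8781 to 1461 to 3228, and from 8129 to 10328 to 5461 to 5995 (interaction −1.16 ± 0.26). With the spike-in factors its acute change was −0.50 and not called (adjusted p = 0.16). Of 18 genes of the Yap1 oxidative stress response, 15 fell with lasting loss (9.64% of all genes) and 15 with acute loss (7.15% of all genes), and 11 fell in both with no called interaction. Among those with one, the thiol peroxidase GPX2 fell by 1.93 and 1.02 and the drug exporter ATR1 by 1.80 and 1.11 on the log2 scale. FLR1, a multidrug exporter that Yap1 controls, fell by 1.25 and 0.81 with an interaction of −0.43 ± 0.14 (adjusted p = 0.084). With the spike-in factors only 20 of all genes tested fell with acute loss. The acute changes of GPX2 and ATR1 were then called (−0.82 and −0.92), and that of FLR1 was not (−0.61, adjusted p = 0.085). In the 51 genes of this class, the median lasting and acute changes were 1.64 and 0.75 in the 14 that rose and −1.36 and −0.51 in the 37 that fell. The rule of the class, a called interaction, fixes that these medians differ.

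Acute loss alone raised 3 genes of maltose use, MAL11, MAL31 and MAL32. MAL11 (YGR289C, chromosome VII, 1073963 to 1075813), a maltose transporter, held 160, 164 and 179 normalized counts in wildtype, 191, 167 and 180 in med16-deletion, 78.3, 73.8 and 81.8 in Med16-AID +DMSO and 222, 165 and 158 in Med16-AID +IAA. The +IAA libraries were above +DMSO without overlap, and med16-deletion and wildtype overlapped. The acute change was 1.22 ± 0.14 (adjusted p = 5.5e-05), the lasting change 0.10 ± 0.14 (95% interval −0.18 to 0.39), and the interaction −1.12 ± 0.20 (adjusted p = 0.0021). The +DMSO libraries were below wildtype, and the +IAA libraries overlapped with wildtype.

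MAL31 (YBR298C, chromosome II, 802631 to 804475), a second maltose permease, held 247, 251 and 279 normalized counts in wildtype, 272, 259 and 223 in med16-deletion, 85.6, 99.4 and 113 in Med16-AID +DMSO and 412, 271 and 154 in Med16-AID +IAA. Its +IAA libraries spread from 154 to 412 with replicate 1 the highest, and its acute change was 1.5 ± 0.25 against a lasting change of −0.04 ± 0.23 (interaction −1.54 ± 0.34, adjusted p = 0.011). The maltase MAL32 was called as well, at a mean of 13.6 normalized counts (acute change 1.77, lasting change −0.25). Maltose genes occur as related copies at subtelomeric loci, and the maltases MAL12 and MAL32 are near-identical. This makes the split of reads between these 2 maltases uncertain. Of 10 maltose genes tested, 4 rose with acute loss (4.09% of all genes) and 1 with lasting loss (7.87% of all genes), and none fell in either. The 1 was the maltase MAL12 (lasting change 1.91, acute change 0.86 and not called). The interaction was lower in 4 (3.86% of all genes) and higher in 0. It was lower in 2 without wildtype replicate 1 or Med16-AID +DMSO replicate 2. The spike-in factors gave 3, and DESeq2 with the spike-in factors gave 0.

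The TATA box core TATAAA, searched on both strands, was in 7 of 10 maltose promoters (70%) and in 44.7% of all promoters. Both transporters are shown with the motif in capitals (RefSeq, build R64, 250 to 51 bases before the coding start); in MAL11 matches on both strands overlap.
MAL11 (chrVII:1075864-1076063, minus strand): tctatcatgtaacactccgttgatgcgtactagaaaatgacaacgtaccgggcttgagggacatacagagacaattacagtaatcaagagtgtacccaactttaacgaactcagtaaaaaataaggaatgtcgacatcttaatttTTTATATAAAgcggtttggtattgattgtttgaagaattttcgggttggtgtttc
MAL31 (chrII:804526-804725, minus strand): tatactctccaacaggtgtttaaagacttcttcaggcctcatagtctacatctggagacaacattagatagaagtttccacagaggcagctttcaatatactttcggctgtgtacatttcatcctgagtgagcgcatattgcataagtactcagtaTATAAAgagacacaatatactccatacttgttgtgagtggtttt

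Glycogen and trehalose genes moved apart between the comparisons. Of 17 tested, 6 had a lower interaction (3.86% of all genes) and 0 a higher one. With acute loss 6 rose (4.09% of all genes) and 0 fell. With lasting loss 1 rose (7.87% of all genes) and 4 fell (9.64% of all genes). The medians were 0.33 (acute), −0.04 (lasting, which changed sign to 0.12 with the spike-in factors) and −0.57 (interaction). GLG1, the glycogenin that primes glycogen synthesis, held 218, 200 and 170 normalized counts in wildtype, 195, 174 and 184 in med16-deletion, 165, 144 and 170 in Med16-AID +DMSO and 337, 266 and 232 in Med16-AID +IAA. It rose with acute loss (0.81 ± 0.14), while the lasting change was −0.08 ± 0.14 (95% interval −0.39 to 0.22; interaction −0.89 ± 0.20, adjusted p = 0.011). GSY1, a glycogen synthase, held 51.8, 56 and 35.5 normalized counts in wildtype, 54.5, 53 and 41.8 in med16-deletion, 114, 91.2 and 105 in Med16-AID +DMSO and 476, 271 and 192 in Med16-AID +IAA, with replicate 1 the highest of the +IAA libraries. Its interaction of −1.52 ± 0.44 was close to the threshold (adjusted p = 0.047) and passed 0.05 when any of 7 libraries was left out, namely wildtype replicates 1 and 2, the 3 med16-deletion libraries and +DMSO replicates 2 and 3 (adjusted p up to 0.13). Trehalose-6-phosphate synthase TPS1 fell with lasting loss only (−0.50 ± 0.10, acute change 0.22 ± 0.09). The count of 6 was 3 without wildtype replicate 1, wildtype replicate 2, med16-deletion replicate 2, +DMSO replicate 2 or +DMSO replicate 3, and 4 with the spike-in factors.

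The other genes raised by acute loss alone include YKR075C, a protein of unknown function that held 455, 410 and 412 normalized counts in wildtype, 330, 429 and 431 in med16-deletion, 170, 181 and 225 in Med16-AID +DMSO and 604, 393 and 330 in Med16-AID +IAA (interaction −1.32 ± 0.25), the glucose repressor MIG1 (acute change 0.52, lasting change −0.03) and the kinase TDA1 (0.74 and 0.05). MIG1 and TDA1 were outside the rule for named genes and were picked after their values were seen. In the 30 acute-only genes with a lower interaction the median acute change was 0.55.

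Acute loss alone lowered a second set, of 26 genes with a median acute change of −0.50. AAH1 (YNL141W, chromosome XIV, 359596 to 360639), the adenine deaminase of purine salvage, held 475, 487 and 485 normalized counts in wildtype, 523, 661 and 493 in med16-deletion, 405, 430 and 461 in Med16-AID +DMSO and 276, 236 and 249 in Med16-AID +IAA. All 3 +IAA libraries were below all others. The acute change was −0.77 ± 0.11 and the lasting change 0.21 ± 0.10 (95% interval −0.00 to 0.43, adjusted p = 0.19), and the interaction was 0.98 ± 0.15 (adjusted p = 0.00064). The aryl-alcohol dehydrogenase AAD4 had changes of −0.55 ± 0.11 (acute) and 0.13 ± 0.10 (lasting), with reads shared among its near-identical relatives. YER053C-A and YOR338W, of unknown function, had acute changes of −0.82 ± 0.11 and −0.58 ± 0.12. With the spike-in factors the acute change of AAH1 was −0.55 (adjusted p = 0.12) and its interaction 0.93 (adjusted p = 0.048), and all 15 acute-only genes were then on the side raised by acute loss.

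The nucleolar protein NSR1, which takes part in ribosome synthesis, held 4188, 4368 and 4585 normalized counts in wildtype, 4351, 4903 and 4370 in med16-deletion, 2968, 3269 and 3151 in Med16-AID +DMSO and 2227, 2305 and 2169 in Med16-AID +IAA (acute change −0.49 ± 0.08, lasting change 0.05 ± 0.08). With the spike-in factors the acute change of NSR1 was −0.28 and not called (adjusted p = 0.44). Of 48 genes of ribosome biogenesis and RNA polymerase I, 10 fell with acute loss (7.15% of all genes) and 1 rose with lasting loss (7.87% of all genes). A called interaction was found in 3, all higher (7 without Med16-AID +DMSO replicate 1). Of all genes, 6.57% had a called interaction and 2.7% a higher one. The cytoplasmic ribosomal proteins had 75 of 138 members that fell with acute loss (median −0.33) and 4 with lasting loss (median −0.09), yet 0 of 138 interactions passed the adjusted test (edgeR), against 18 with total counts as scaling and 7 with DESeq2 and TMM factors. At an unadjusted interaction p under 0.05 there were 37 of the 138, all higher, against 1159 of all 5696 genes in either direction. None of the 138 fell with acute loss under the spike-in factors, where the medians were −0.13 (acute) and 0.09 (lasting). Many of these genes occur as near-identical pairs, whose counts are uncertain.

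In 22 genes both changes were called and opposed. In 13 of them expression fell with lasting and rose with acute loss, and in 9 the reverse. Counting genes with a called interaction by sign alone, 108 were lower with lasting and higher with acute loss and 88 the reverse. The 13 are TSL1, ISF1, PRY1, MTH1, WSC4, EMI2, DIC1, DOG2, GPD1, NRD1, PRC1, PEP4 and NIS1, and the 9 are ITR1, BUD20, KSS1, TRM11, HO, AQR1, DBP2, UPS2 and YNL198C.

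TSL1 (YML100W, chromosome XIII, 70624 to 73920), the large regulatory subunit of trehalose synthase, held 305, 263 and 198 normalized counts in wildtype, 131, 131 and 78.8 in med16-deletion, 839, 707 and 756 in Med16-AID +DMSO and 1241, 949 and 1023 in Med16-AID +IAA. The med16-deletion libraries were below wildtype and the +IAA libraries above +DMSO, in both cases without overlap. The lasting change was −1.15 ± 0.18 (adjusted p = 0.0002) and the acute change 0.48 ± 0.14 (adjusted p = 0.034), an interaction of −1.63 ± 0.23 (adjusted p = 0.00034). It was also called in both directions with the spike-in factors (−1.0 and 0.71). Both Med16-AID groups were above wildtype.

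The promoter of TSL1 is shown for its stress response elements, the CCCCT to which Msn2 and Msn4 bind, which occur in 9 of 17 glycogen and trehalose genes (52.9%) and in 21.8% of all promoters (both strands searched). Capitals mark 3 matches, all on the other strand and so read as AGGGG (RefSeq, build R64, 250 to 51 bases before the coding start).
TSL1 (chrXIII:70374-70573, plus strand): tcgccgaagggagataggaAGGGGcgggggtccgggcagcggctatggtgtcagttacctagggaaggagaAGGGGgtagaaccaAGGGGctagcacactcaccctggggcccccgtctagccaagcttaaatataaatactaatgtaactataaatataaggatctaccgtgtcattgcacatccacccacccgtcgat

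MTH1, a corepressor of hexose transporter genes that glucose inactivates, held 457, 469 and 448 normalized counts in wildtype, 249, 303 and 346 in med16-deletion, 170, 153 and 242 in Med16-AID +DMSO and 381, 281 and 298 in Med16-AID +IAA. It fell with lasting loss (−0.62 ± 0.15) and rose with acute loss (0.77 ± 0.16; interaction −1.39 ± 0.22, adjusted p = 0.00084). The level in wildtype was above that of +DMSO, and the med16-deletion and +IAA libraries, between 249 and 381, overlapped. PRY1, a sterol-binding secreted protein, held 126, 142 and 141 normalized counts in wildtype, 99.3, 84.1 and 56.1 in med16-deletion, 84.5, 69.7 and 82.9 in Med16-AID +DMSO and 126, 137 and 126 in Med16-AID +IAA, and there too the +DMSO libraries were below wildtype and the +IAA libraries overlapped with it. ISF1 held 195, 190 and 143 normalized counts in wildtype, 95.3, 104 and 100 in med16-deletion, 308, 268 and 325 in Med16-AID +DMSO and 552, 487 and 430 in Med16-AID +IAA (lasting change −0.82 ± 0.15, acute change 0.71 ± 0.12). EMI2, a glucokinase relative, and GPD1, of glycerol synthesis, had lasting changes of −0.67 and −0.40 and acute changes of 0.59 and 0.39. The vacuolar proteases PEP4 and PRC1, named after their values were seen, had −0.37 and −0.29 against 0.34 and 0.43.

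HO, the endonuclease of mating type switching, held 832, 925 and 852 normalized counts in wildtype, 1200, 1343 and 1289 in med16-deletion, 506, 574 and 610 in Med16-AID +DMSO and 500, 389 and 440 in Med16-AID +IAA. It rose with lasting loss (0.55 ± 0.09, adjusted p = 0.00036) and fell with acute loss (−0.34 ± 0.10, adjusted p = 0.035), with an interaction of 0.90 ± 0.14 (adjusted p = 0.0007). DBP2, an RNA helicase, held 2711, 2738 and 3111 normalized counts in wildtype, 3809, 4444 and 3694 in med16-deletion, 1613, 1941 and 2001 in Med16-AID +DMSO and 1284, 1243 and 1254 in Med16-AID +IAA, and its changes were 0.48 ± 0.10 and −0.55 ± 0.10 (interaction 1.04 ± 0.14, adjusted p = 0.00018). With the spike-in factors the acute falls of HO and DBP2 were −0.11 (adjusted p = 0.74) and −0.34 (adjusted p = 0.34). The class is the one most open to the processing, with 2 genes under the spike-in factors (1 of them among the 22) and 5 genes without Med16-AID +DMSO replicate 2. Of the 22, 20 kept an unadjusted interaction p under 0.05 under the spike-in factors.

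**Figure D3:**
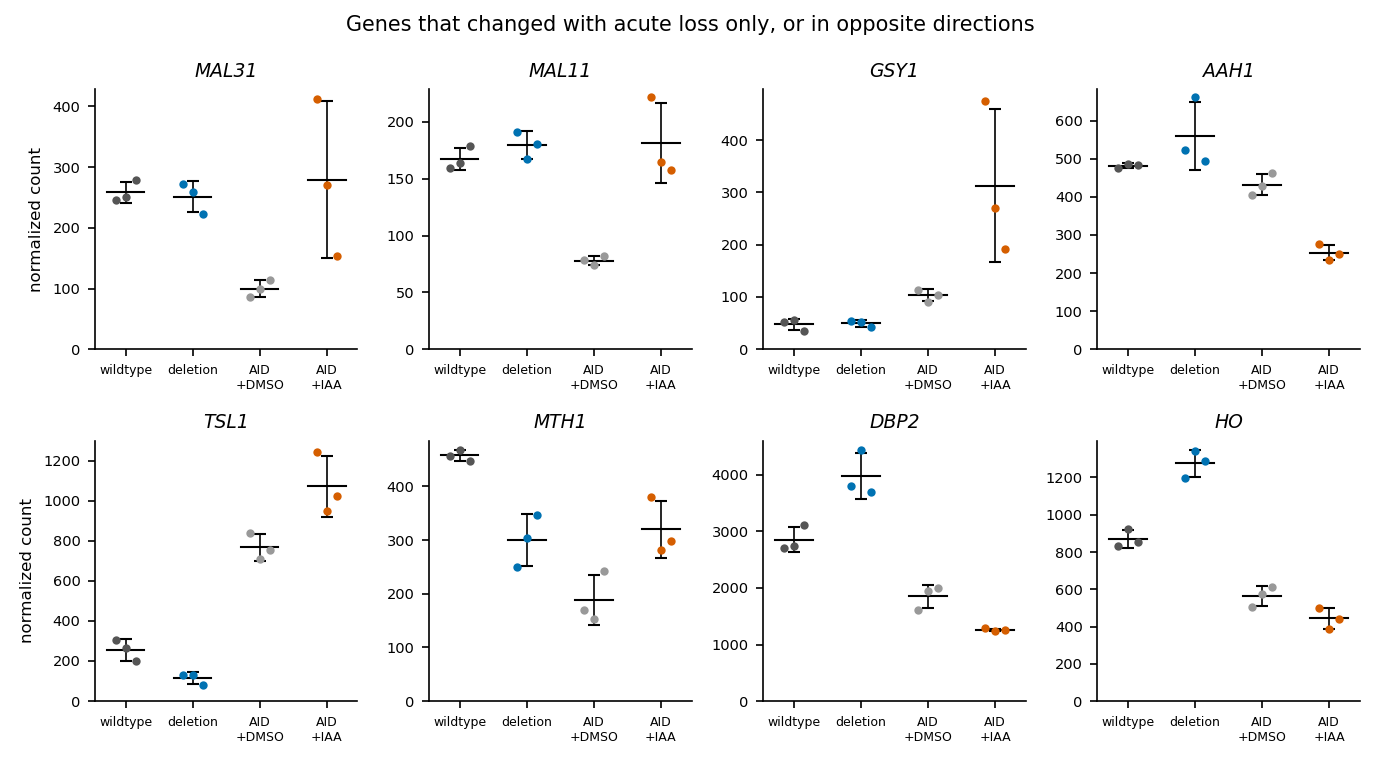
Normalized counts (y axis, linear from 0) of 4 genes with only the acute change called (MAL31, MAL11, GSY1, AAH1) and 4 with opposite changes (TSL1, MTH1, DBP2, HO) in the 12 libraries, with points for libraries, a bar for the mean and whiskers for the SD of 3 libraries. For MAL11 the +DMSO points (73.8 to 81.8) lie below the other 9 (158 to 222), and for TSL1 med16-deletion lies below wildtype while +IAA lies above +DMSO.

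Across the classes, a change that was not called is not shown to be 0. Of the 228 lasting-only genes, the 95% interval of the acute change lay within −0.5 to 0.5 in 160, and 68 had an unadjusted acute p under 0.05. Their acute changes had the sign of the lasting change in 121 and the other sign in 107. Of the 56 acute-only genes, 46 had a lasting interval within these bounds, and 8 an unadjusted lasting p under 0.05. The controls differed from each other (Med16-AID +DMSO against wildtype) in 133 of the 228 lasting-only genes (58.3%), 35 of the 56 acute-only genes (62.5%) and 13 of the 22 opposite genes (59.1%), against 49.2% of all genes. The difference of the controls enters the interaction and comes from the same libraries. A rule that asks for a called interaction therefore favors genes whose controls differ. The excess over 49.2% cannot be read as a result about the classes, and the part of these differences in the interactions was not tested.

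**Figure D4:**
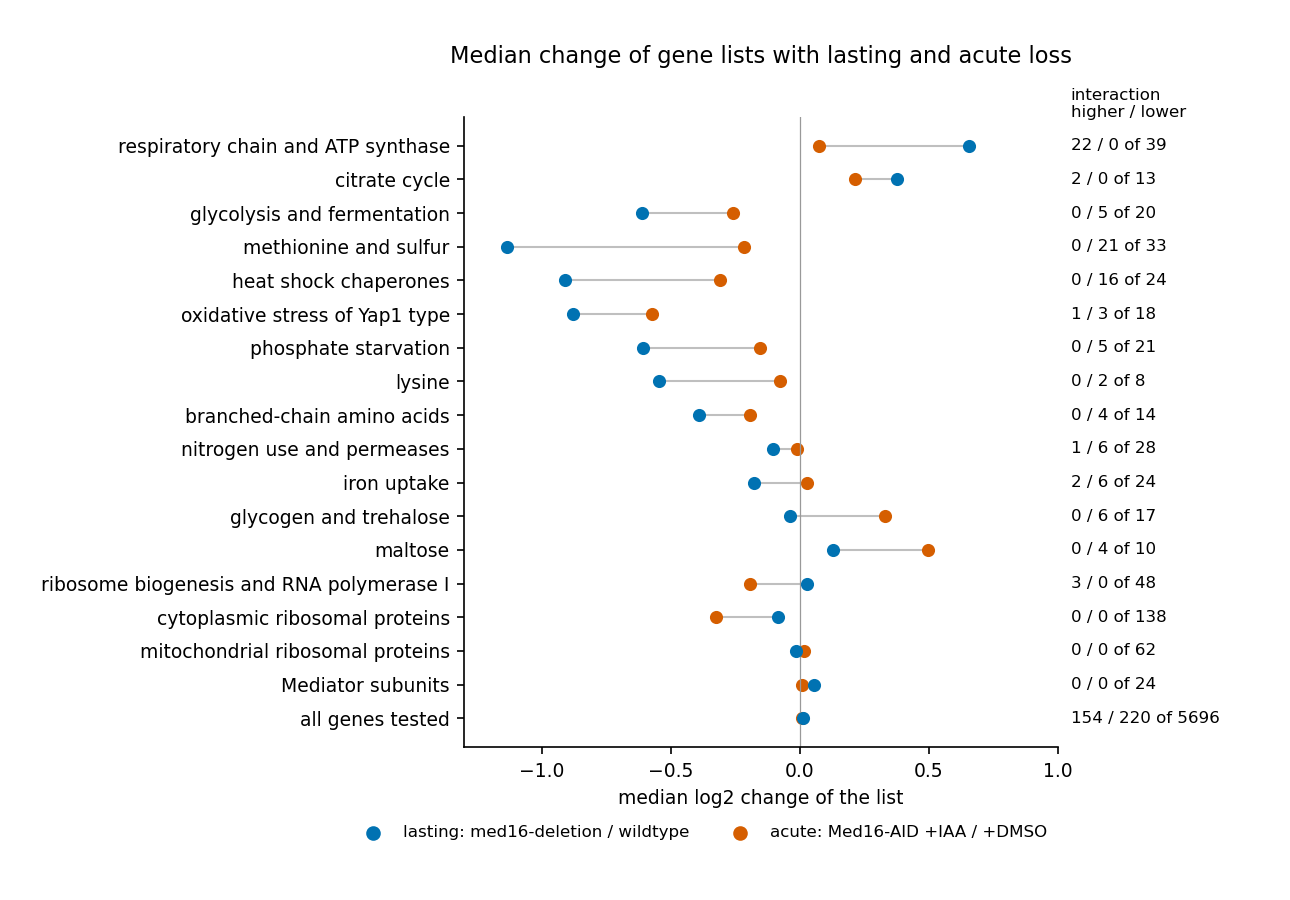
Median log2 change of gene lists with lasting loss (blue) and acute loss (orange), with the number of members with a higher and a lower interaction out of those tested. The blue point lies far from the orange one for methionine and sulfur genes (−1.14 against −0.22), chaperones (−0.91 against −0.31) and the respiratory chain with ATP synthase (0.66 against 0.07), and both are close to 0 for the Mediator subunits and for all genes.

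Of 20 genes of glycolysis and fermentation, 17 fell (9.64% of all genes) and 1 rose with lasting loss, and 6 fell with acute loss (7.15% of all genes). A lower interaction was called in 5 (3.86% of all genes) and a higher one in 0. The count of 5 was 3 without wildtype replicate 1, +DMSO replicate 3 or +IAA replicate 1. Among the 5 are the enolase ENO1 (−0.92 ± 0.16) and HXK1.

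No interaction was called (edgeR, adjusted p) among the 24 other Mediator subunits tested, 33 proteasome genes, 10 histone genes, 15 genes of fatty acid oxidation, 9 of arginine synthesis and 20 of histidine and aromatic amino acid synthesis. At an unadjusted p under 0.05 there were 1, 6, 1, 1, 4 and 1 in these lists in the same order, against 1159 of all 5696 genes. DESeq2 with TMM factors called 1 arginine gene, 1 histidine or aromatic gene and 0 in the other 4 lists. ARG1 of arginine synthesis had an interaction of 0.11 ± 0.30 (adjusted p = 0.89), with med16-deletion libraries from 2148 to 4395.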

How the data were processed

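The authors mapped paired-end nsRNA-seq reads to sacCer3 with STAR (2.6.1a) and deposited raw counts per gene for each library, with no normalization. The sense column was used. Counts were tested with edgeR 4.0.16 in R 4.3.3 (quasi-likelihood F-test after filterByExpr; fold changes use a prior count of 0.125) in 1 fit of 12 libraries with 4 group means and no covariate. Spike-in size factors were planned from published base means. That route missed the base means (median relative error 0.0947), so TMM factors were used, and spike-in factors recovered by another route (published fold changes and their standard errors, largest fold change error 4.86e-06) became an alternative. Normalized counts are counts over the TMM effective library size, at the geometric mean size. Replicates are biological per the methods. Genes and lists were chosen with earlier results of these data known. Named genes are the largest interactions of each class with a mean of at least 50 normalized counts (for lasting-only and acute-only genes, those whose groups did not overlap), up to 3 members per list, and 4 genes the study names. The script was tested on simulated counts. Alternatives were other scalings, DESeq2 1.42.0, filters, unstranded counts, replicate blocks and leaving out each library. IDs matched R64 for 6008 of 6692 genes. The symbols ARG5,6, ADE5,7, DUR1,2 and AAD16 were not matched. Figures used matplotlib 3.10.9.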

Additional observations from a re-analysis of the deposited data

Results flagged for a closer look

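The change with lasting loss differed from the change with acute loss in 374 genes by the test of the difference itself, the interaction described above. In 22 of them both changes were called and ran in opposite directions.

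The counts on the antisense strand, which the comparisons above do not use, also differed. Of 2812 genes with enough antisense counts, 81 had a called interaction (edgeR, adjusted p under 0.05), 26 higher and 55 lower, and 410 had an unadjusted p under 0.05. In 17 of the 81 the sense interaction was called too, with the opposite sign in 9, and in 17 the sense strand had too few counts to be tested. Reads antisense to a gene include sense reads of a gene that overlaps it on the other strand. Antisense to YTP1, next to the replaced MED16 gene, the mean was 123 normalized counts in wildtype, 572 in med16-deletion, 122 in Med16-AID +DMSO and 133 in Med16-AID +IAA (interaction 2.09 ± 0.21), while the sense interaction was −1.65. Antisense to FUS1 the means were 706, 197, 136 and 170 (interaction −2.16 ± 0.22), while the sense interaction was 1.43. Antisense to OPT2 they were 108, 31.2, 62.5 and 61.7 (interaction −1.76 ± 0.28, sense 2.25), and antisense to MTH1 35.9, 104, 89.7 and 86.0 (interaction 1.59 ± 0.27, sense −1.39).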

How the results depend on the processing

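The spike-in factors and DESeq2 with the same factors gave 111 and 85 interaction calls, 497 and 535 lasting calls, 171 and 120 acute calls, 81 and 74 lasting-only genes, 15 and 3 acute-only genes, and 2 and 0 opposite genes, against 374, 997, 640, 228, 56 and 22. Among the 228 lasting-only genes were 63 and 60 of these, among the 56 acute-only genes 7 and 0, and among the 22 opposite genes 1 and 0. Total counts as scaling gave 2014 lasting and 1021 acute calls, and DESeq2 with TMM factors gave 92 acute-only genes. Median-of-ratios factors, both filters and unstranded counts kept these 6 counts within 1.5 times. Leaving out 1 library gave 247 to 540 interaction calls, 696 to 1133 lasting calls, 283 (without Med16-AID +IAA replicate 1; 310 without Med16-AID +DMSO replicate 2) to 767 acute calls, and 153 to 294 lasting-only, 32 to 112 acute-only and 5 to 30 opposite genes. Acute-only genes were 36 without wildtype replicate 2, 107 without med16-deletion replicate 1, 112 without +DMSO replicate 1, 33 without +DMSO replicate 2 and 32 without +IAA replicate 1. Opposite genes were 12 without wildtype replicate 1 or 2 or med16-deletion replicate 2, 14 without wildtype replicate 3, 13 without +DMSO replicate 3, 11 without +IAA replicate 2 and 7 without +IAA replicate 1. With an unadjusted p of at least 0.05 in the other comparison, 160 genes were lasting only and 48 acute only.

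Same-numbered deviations from the group means correlated across genes at −0.153, −0.0508 and −0.0199 (med16-deletion with wildtype) and −0.204, −0.298 and 0.385 (+IAA with +DMSO). With 3 libraries per group and mixed signs, these values cannot settle whether same-numbered libraries were paired. A replicate block gave 388 interaction, 939 lasting and 583 acute calls, and 229 lasting-only, 64 acute-only and 23 opposite genes. A block within each pair of groups gave 368, 887, 568, 219, 55 and 20.

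Of 95 named genes with a called interaction, 39 were called under all 22 alternatives (37 of them with the same direction in all), SPL2 under the 21 that tested it, and 54 with the spike-in factors. The direction reversed with unstranded counts for YTP1 (1.40) and FUS1 (−0.76). The uncalled interaction of ARG1 ranged from −0.32 (without med16-deletion replicate 3) to 0.29 when 1 library was left out, and was −0.05 without Med16-AID +DMSO replicate 1. The causes were not tested.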
